A study of Mus musculus with 3 samples.

Results

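The cartilage genes were followed cell by cell through 3 single-cell libraries of mouse bone marrow, namely Col2a1, Acan, Matn1, Sox9, Col10a1 and Prg4. They were picked by name and make up 6 of the 125 targets with any molecule in the series, which was measured with a targeted panel, so that each gene is read from 1 or 2 short amplicons rather than along its length. All mice were wild type C57/B6 animals and no group carried a transgene or a treatment. E18.5 EC held endothelial cells sorted from E18.5 embryonic marrow, with a gate that one source gives as CD31 and endomucin and another as CD31 alone. The library E18.5 BM cells was a marrow suspension of that stage and the library Adult BM cells one of adult mice, both stripped of mature blood cells with lineage antibodies on magnetic beads. In its single-cell methods the paper that reported these data describes further antibody depletions of blood cells for adult marrow only. Each group was 1 library made from several pooled animals, so no value has a replicate. Embryonic and adult stage cannot be told apart from library, preparation and depth, and every interval given here covers counting error alone.

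Cartilage is built by chondrocytes, which surround themselves with type II collagen and with the proteoglycan aggrecan under the direction of the transcription factor SOX9. In the growth plate of a long bone these cells enlarge, switch to type X collagen as hypertrophic chondrocytes, and give way to bone and marrow. The surface of a joint is covered by another kind of cell that secretes lubricin, the product of Prg4. Col2a1 encodes the chain of type II collagen, Acan encodes aggrecan, Matn1 the cartilage matrix protein matrilin-1, and Col10a1 the chain of type X collagen.

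The genes were located in GENCODE vM21 on GRCm38, which is the mm10 build that the submitters name. Col2a1 lies on the minus strand at chr15:97975602-98004695 with 54 exons, and Acan on the plus strand at chr7:79053483-79115099 with 17 exons. Matn1 lies at chr4:130944385-130955475 (plus strand, 8 exons) and Sox9 at chr11:112782224-112787760 (plus strand, 3 exons). Col10a1 lies at chr10:34389981-34397085 (plus strand, 3 exons), where the gene Nt5dc1 runs on the opposite strand. Prg4 lies at chr1:150449869-150466165 (minus strand, 13 exons) and overlaps Tpr on the opposite strand. The position of each amplicon within its transcript was not given in the sources used here. Sox9 is the member with 2 amplicons, and in Adult BM cells they gave 4048 and 8061 molecules, with 487 of the 575 cells positive for the less abundant amplicon also positive for the other. The 2 counts were summed, so a single Sox9 transcript may be counted by both.

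RefSeq promoter windows on GRCm38.p6 were at hand for 3 of the 6 genes. The 150 bases before the start site are shown for these because cells high for Acan or Matn1 nearly all lay among those high for Col2a1, while at E18.5 many cells high for Col10a1 did not. Capitals mark the letters TATAAA read on the gene's strand, TGTGGT read on either strand, and the letters ACAAAG or their variant ACAATG, also on either strand.
Acan, chr7:79053076-79053225, plus strand: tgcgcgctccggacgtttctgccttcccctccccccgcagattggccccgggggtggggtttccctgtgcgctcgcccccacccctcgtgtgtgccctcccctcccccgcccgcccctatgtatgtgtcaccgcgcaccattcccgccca
Matn1, chr4:130944235-130944384, plus strand: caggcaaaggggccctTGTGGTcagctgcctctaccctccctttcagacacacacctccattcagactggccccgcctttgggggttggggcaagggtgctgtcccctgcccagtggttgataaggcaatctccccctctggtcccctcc
Col10a1, chr10:34389831-34389980, plus strand: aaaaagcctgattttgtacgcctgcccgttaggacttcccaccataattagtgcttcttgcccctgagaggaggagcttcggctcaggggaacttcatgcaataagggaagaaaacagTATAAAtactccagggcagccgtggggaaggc
The start site is that of RefSeq, which for Acan lies upstream of the GENCODE start given above. TATAAA began 32 bases before the start of Col10a1, and 4.84% of 32851 RefSeq windows of this length hold those letters. TGTGGT began 134 bases before the start of Matn1, and 8.40% of windows hold it on one strand or the other. The windows of all 3 genes lack ACAAAG and ACAATG, which occur in 15.5% of windows. These are matches of letters in a short stretch, with no measurement of binding.

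Cells were kept with at least 20 molecules from at least 5 targets, which left 4038 cells of E18.5 EC. E18.5 BM cells kept 12844 and Adult BM cells kept 7939. A molecule is a unique molecular identifier after the deposited error correction that the pipeline calls DBEC. The libraries held 432750, 1836371 and 6303440 molecules, with a median of 83, 97 and 242 per cell. Pairs of libraries shared 38 to 113 cell barcodes, and no shared barcode was rich in a cartilage gene in both libraries of a pair.

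The 6 genes together gave 0.0483% of all molecules of the sorted E18.5 EC library. The share was 1.93% for E18.5 BM cells and 28.3% for Adult BM cells. Col2a1 was the most abundant of all targets in Adult BM cells. Its level was 1.39 molecules per 10000 panel molecules in E18.5 EC (95% exact Poisson interval 1.06 to 1.78), 70.0 in E18.5 BM cells (68.7 to 71.2) and 1733 in Adult BM cells (1729.5 to 1736). Acan, the aggrecan gene, followed the same order with 0.116, 7.84 and 111 per 10000. Sox9, which drives both of those genes, stood at 0.324, 2.28 and 19.2 per 10000. Prg4, the lubricin gene, had the widest range, with 0.139, 1.59 and 796 per 10000.

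The other 2 genes differed less between the marrow libraries. Matn1 stood at 0.693 per 10000 in the sorted library, 3.98 in E18.5 BM cells (3.69 to 4.27) and 2.80 in Adult BM cells (2.67 to 2.93), so that it alone was lower in the adult than in the E18.5 marrow library, by a difference that nearly vanished without the 6 genes in the denominator (a ratio of 0.963, interval 0.882 to 1.05). Col10a1 stood at 2.17, 107 and 165 per 10000. Because each gene has its own primers, levels of different genes are not compared with each other as amounts of RNA, but the ratio of a fixed pair can be compared across libraries. Col10a1 gave 1.53 molecules per Col2a1 molecule in E18.5 BM cells (1.49 to 1.56), 1.57 in E18.5 EC (1.12 to 2.20) and 0.0953 in Adult BM cells (0.0946 to 0.0959).

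**Figure D1:**
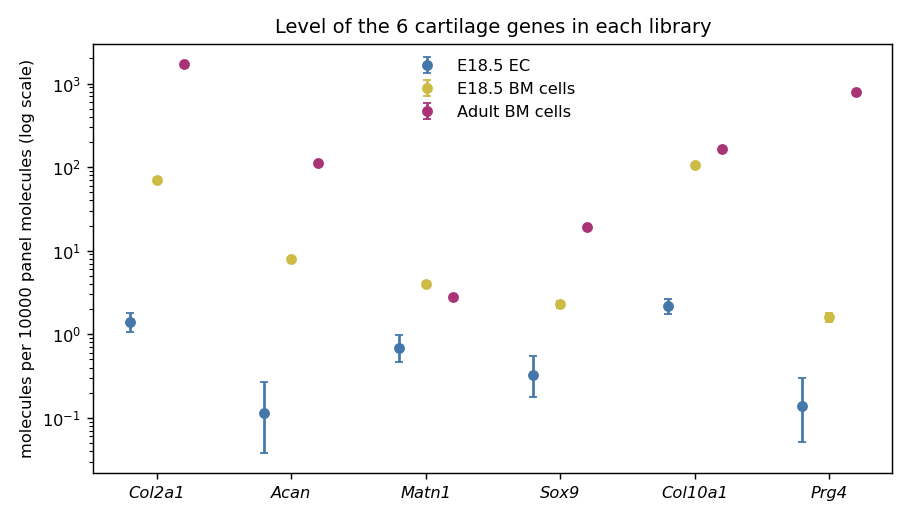
Points give molecules of each gene per 10000 panel molecules on a log axis in the 3 libraries, and bars give exact 95% Poisson intervals, which are narrower than the point where not visible. Prg4 spans 0.139 to 796 per 10000, while Matn1 is lower in Adult BM cells (2.80) than in E18.5 BM cells (3.98) on this scale, with a ratio of 0.963 when the 6 genes are left out of the total.

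Between the marrow libraries, Prg4 was 501-fold higher in Adult BM cells (447 to 564), Col2a1 24.8-fold, Acan 14.1-fold and Sox9 8.42-fold. Col10a1 was 1.54-fold higher (1.52 to 1.57) and the Matn1 ratio was 0.704 (0.645 to 0.768). At least 4-fold higher levels were thus found for 4 of the 6 genes, where 25.7% of 113 targets stood that far higher in the adult library and 36.3% that far lower. When levels were taken per molecule of the other targets, which removes the share that the 6 genes themselves take, the ratio of Col2a1 became 33.9 and that of Col10a1 2.11. With 1 library on each side no test of these ratios can be made.

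The molecules came from few cells. A cell with 10 or more molecules of a gene is called high for it below, and a cell with fewer than 10 of every one of the 6 genes is called low. Adult BM cells held 1224 cells that were high for at least 1 gene, 15.4% of the library, and these cells held 99.5% of all molecules of the 6 genes. E18.5 BM cells held 120, or 0.934%, with 94.3% of the molecules. E18.5 EC held 3 such cells, with 28.7% of its 209 cartilage gene molecules. The high cells were also the deep ones, with a median of 2548 molecules in the adult library against 201 in low cells, and 607.5 against 96 in the E18.5 marrow library.

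High cells of the adult library numbered 715 for Col2a1, 523 for Prg4, 434 for Acan, 353 for Sox9, 96 for Col10a1 and 42 for Matn1. The same count in the E18.5 marrow library was 77 for Col2a1, 72 for Col10a1, 20 for Acan, 10 for Matn1, 4 for Sox9 and 3 for Prg4. The share of a gene's molecules that lay in its high cells ran from 99.6% for Col2a1 to 75.8% for Matn1 in Adult BM cells. In E18.5 BM cells it was 98.0% for Col10a1 and 94.2% for Col2a1 but 44.9% for Acan and 13.8% for Sox9. More Sox9 and Acan molecules therefore lay outside their high cells than inside them at E18.5.

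**Figure D2:**
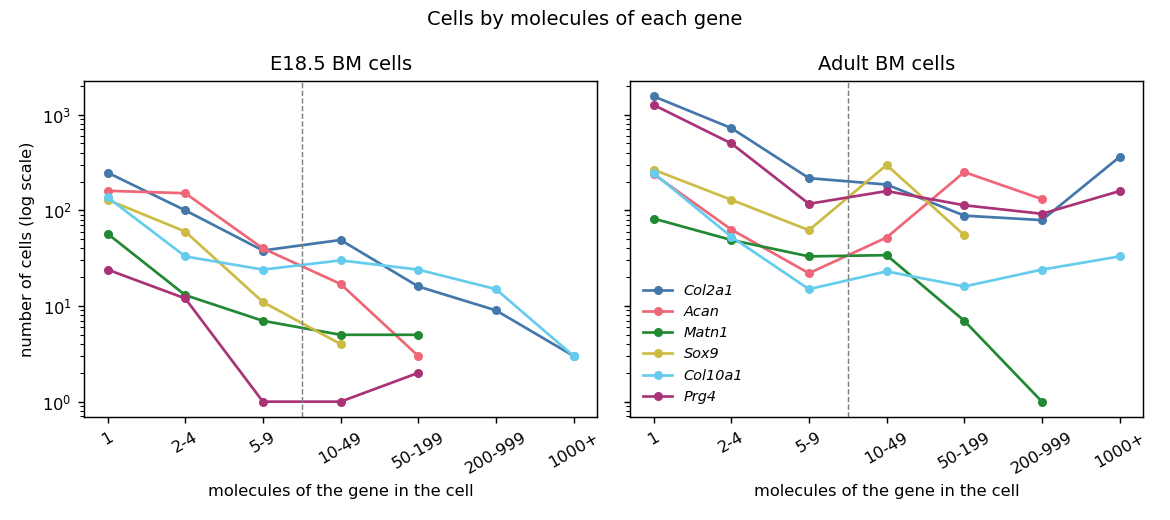
Lines give the number of cells, on a log axis, by the molecules of each gene in the cell, in the marrow libraries, with cells at 0 left out and a dashed line at 10 molecules. Col2a1 falls from 1556 adult cells with 1 molecule to 79 cells with 200 to 999 and rises again to 362 cells with 1000 or more.

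The Col2a1 counts of the adult library had a low and a high mode. No Col2a1 molecule was found in 4727 cells and exactly 1 in 1556, while 88 cells had 50 to 199, 79 had 200 to 999 and 362 had at least 1000. Those 362 cells, with a median of 2758 Col2a1 molecules and 66.4% of the cell's panel molecules, held 94.7% of all Col2a1. The threshold of 10 molecules itself fell in a populated range, with 217 cells at 5 to 9 and 78 cells at 10 to 14. The highest single cell had 6135 molecules.

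The cells with moderate and with very high Col2a1 differed in the other genes. All 362 adult cells with at least 1000 Col2a1 molecules were high for Acan, with a median of 166 Acan molecules, and 86.2% were high for Sox9, with a median of 22. Among the 274 cells with 10 to 199 Col2a1 molecules, 5.47% were high for Acan and 3.28% for Sox9. These 274 cells carried a mean of 971 molecules of Bglap, the osteocalcin gene of osteoblasts, where the 362 cells carried 18.9. Their median depth was 2319.5 molecules and Col2a1 made up a median of 2.19% of the cell. Whether that Col2a1 was made in those cells was not tested, and no doublet caller was run.

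**Figure D3:**
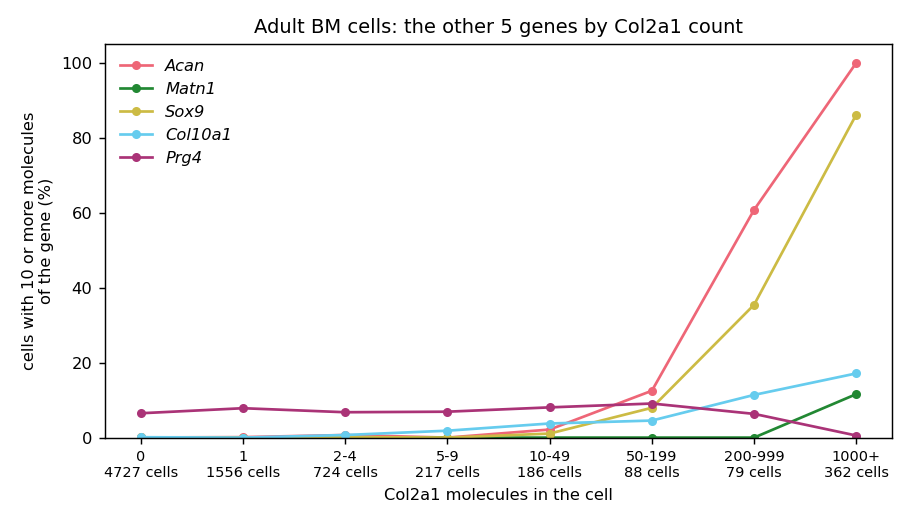
Lines give the percentage of Adult BM cells with 10 or more molecules of Acan, Matn1, Sox9, Col10a1 or Prg4, by the Col2a1 molecules of the cell, with the number of cells under each range. Acan climbs from 2.15% of cells at 10 to 49 Col2a1 molecules to 60.8% at 200 to 999 and 100% at 1000 or more, while Prg4 goes from 8.06% to 0.552%.

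E18.5 BM cells also had a small set of cells rich in Col2a1. There 12 cells with at least 200 Col2a1 molecules held 74.0% of all Col2a1, and the top cell alone had 2481. Acan was present in all 12, Matn1 in 91.7% and Sox9 in 91.7% of them. Matn1 was more prominent in these cells than in their adult counterparts, with a median of 23 molecules against 0 in the 441 adult cells past the same count. Per Col2a1 molecule it stood at 0.0587 (0.0538 to 0.0639) against 0.00163 (0.00155 to 0.00170). Acan per Col2a1 molecule was 0.0240 in the 12 cells and 0.0635 in the 441. Sox9 per Col2a1 molecule was 0.00537 (0.00399 to 0.00706) and 0.0105 (0.0103 to 0.0107).

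Cells high for the aggrecan, matrilin and Sox9 genes were nested within those high for Col2a1. Of the adult cells, 425 of 434 high for Acan, 349 of 353 high for Sox9 and 42 of 42 high for Matn1 were high for Col2a1 too. The reverse shares were 59.4%, 48.8% and 5.87% of the Col2a1-high cells. At E18.5, 20 of 20 Acan-high and 10 of 10 Matn1-high cells were Col2a1-high, but 2 of 4 Sox9-high cells. The commonest combinations of the adult library were Prg4 alone in 486 cells, Col2a1 alone in 267, and Col2a1 with Acan and Sox9 in 265. In the E18.5 marrow library they were Col10a1 alone in 40 cells, Col2a1 alone in 35, and both of these together in 18.

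By the fixed count of 10 molecules, type II and type X collagen overlapped differently in the marrow libraries. In Adult BM cells, 82 cells were high for both, which is 11.5% of the 715 Col2a1-high cells and 85.4% of the 96 Col10a1-high cells. E18.5 BM cells had 31 such cells, which is 40.3% of 77 and 43.1% of 72. Cells high for Col10a1 without Col2a1 were thus 14 in the adult library and 41 at E18.5. A fixed count is harder to reach in a shallow cell, and these 41 cells had a median depth of 116 molecules. Median depth was 2124 in the 31 cells high for both and 5389.5 in the adult Col10a1-high cells. Col2a1 made up a median of 0.620% of the cell in the 41 cells and 1.90% in the 31. Whether the overlap differs at equal depth was not tested. Where Col10a1 was set against the sum of both genes within each cell high for either, it gave over 90% in 9 of 729 adult cells and in 47 of 118 E18.5 cells. It gave between 10% and 90% in 61 and 29 cells.

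**Figure D4:**
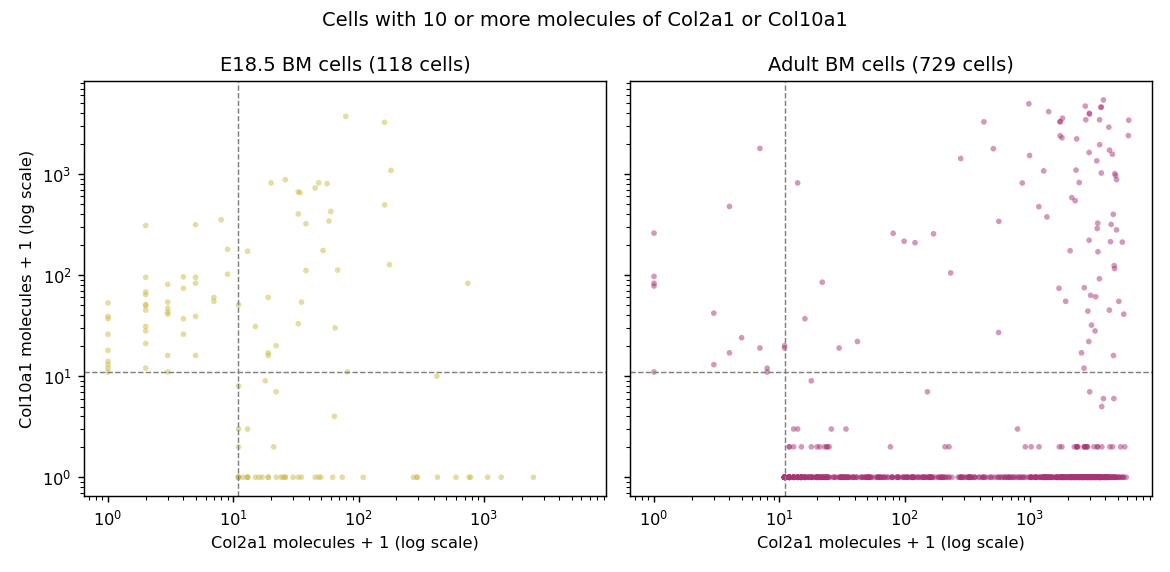
Each point is a cell with 10 or more molecules of Col2a1 or Col10a1, placed by its molecules of both genes plus 1 on log axes, with dashed lines at 10 molecules. In Adult BM cells the 82 cells high for both lie mostly at high Col2a1 counts, with a median of 2776, whereas the 41 E18.5 BM cells high for Col10a1 alone have a median of 2 Col2a1 molecules.

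The cells high for both genes had different contents at each stage. The 82 adult cells had a median of 2776 Col2a1 and 386.5 Col10a1 molecules, with Acan in 98.8% and Sox9 in 90.2% of them. The 31 E18.5 cells had a median of 37 Col2a1 and 174 Col10a1 molecules, with Acan in 74.2% and Sox9 in 51.6%. Median depth was 5920.5 molecules in the former and 2124 in the latter. Matn1 was found in 61.0% of the adult cells high for both against 22.6% of the 633 adult cells high for Col2a1 without Col10a1. Restricted to cells with at least 200 Col2a1 molecules, Matn1 per Col2a1 molecule was 0.00455 (0.00427 to 0.00485) where Col10a1 was high and 0.000901 (0.000839 to 0.000967) where it was not. Acan per Col2a1 molecule hardly moved in that split, at 0.0639 and 0.0633.

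The 41 E18.5 cells high for Col10a1 without Col2a1 were shallow, with a median of 116 molecules, of which Col10a1 made up 43.3%. Spp1, the gene of the bone matrix protein osteopontin, was present in 97.6% of them. Mmp13, the collagenase of late hypertrophic chondrocytes and osteoblasts, was present in 41.5%. Among targets with at least 20 molecules there, those with the highest fold over all other cells were Mmp13 at 18.7-fold, Spp1 at 15.5-fold, Panx3 at 8.36-fold, Wnt4 at 6.18-fold and Bglap at 4.32-fold. Panx3 was present in 26.8% of the 41 cells, Wnt4 in 17.1% with 20 molecules and Bglap in 9.76% with 34. These folds pool cells with depths of 27 to 3357 molecules, so the deepest cells weigh most in them. Col2a1 was not absent from these cells, since 32 of the 41 had at least 1 molecule. Prg4 was found in 0 of them, which allows a share of up to 7.32% of cells with a molecule, taking 3 counts as the limit of a count of 0. Their adult counterparts, 14 cells with a median depth of 926.5, were led by Cytl1 at 17.7-fold in 64.3% of the cells and Cilp at 9.72-fold in 28.6%. Spp1 followed at 2.17-fold in 78.6% and Mmp13 at 2.02-fold in 28.6%, while Sgms2 at 1.84-fold came from 7.14% of the 14, a single cell.

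Most adult Prg4-high cells were not high for Col2a1. Of the 523 Prg4-high cells 30 were also Col2a1-high, which is 5.74% of the Prg4-high and 4.20% of the Col2a1-high cells. Over the whole adult library 9.01% of cells were Col2a1-high and 6.59% Prg4-high, so both shares of overlap were below those of the whole library. In the other 493 cells Prg4 made up a median of 56.3% of the cell's molecules, and 307 of them had no Col2a1 molecule. Matn1 was found in 0 of the 493, which allows a share of up to 0.609%, while Sox9 was present in 91 of them and Acan in 7.30%. Over all 7939 adult cells, log2 of 1 plus the level of Prg4 and of Col2a1 per 10000 correlated with r = -0.0768, as a description of cells that share 1 library and differ in depth. That coefficient was 0.594 for Col2a1 with Acan, 0.458 for Col2a1 with Sox9 and 0.1996 for Col2a1 with Col10a1.

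The 493 cells differed from the Col2a1 cells in other genes of the panel. Over all other adult cells they were highest for Atp6v0d2, a proton pump subunit of osteoclasts, at 153-fold, but from 71 molecules in 4.46% of the cells. S100a4 followed at 26.8-fold in 73.4% of cells, Cdh13 at 24.0-fold in 73.0%, Wnt9a at 19.1-fold in 26.2% and Acp5 at 19.0-fold in 32.7%. Ecm1, a matrix gene, was present in 90.3% of the 493 cells and in 26.4% of the adult cells high for Col2a1 without Col10a1. It was also present in 65.5% of all adult cells that were not Col2a1-high. The 30 cells high for both Prg4 and Col2a1 had a median of 49.5 Col2a1 and 363.5 Prg4 molecules, and carried Cilp, a gene of the intermediate layer of cartilage, at 1693 per 10000 molecules of the other targets. At E18.5, 3 cells were Prg4-high, with 128, 90 and 13 molecules.

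Genes outside the 6 were compared between Col2a1-high cells and all other cells of the same library, per 10000 molecules of the targets other than the 6. Cells were picked by Col2a1, so the folds describe these cells and carry no test. Of the 6 growth plate and bone genes on the panel, 2 stood at least 4-fold higher in the adult Col2a1-high cells and 5 in those of E18.5. The background is 10.5% of 105 targets that far higher in the adult library and 14.3% of 98 at E18.5, with 58.1% and 55.1% that far lower. The median fold of this list was 2.84 and 12.8, against 0.144 and 0.145 over all targets.

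Pth1r, the receptor for parathyroid hormone and its related peptide in prehypertrophic cartilage and bone, was high at both stages, with 7.90-fold (7.74 to 8.06) in adult and 6.68-fold (5.97 to 7.46) in E18.5 Col2a1-high cells. Mmp13 and Spp1 were not. Mmp13 stood at 19.8-fold in the E18.5 cells and at 0.213 in the adult cells, and Spp1 at 21.7-fold and 0.717. The sets also differed in Col10a1, since 40.3% of the E18.5 and 11.5% of the adult Col2a1-high cells were Col10a1-high. Whether these folds followed that difference was not tested. Alpl, the alkaline phosphatase of mineralising tissue, stood at 0.292 in the E18.5 cells and 4.20-fold in the adult cells. Bglap was 2.85-fold higher in adult Col2a1-high cells and 12.7-fold in those of E18.5. The adult cells had a mean of 971 Bglap molecules at 10 to 199 Col2a1 molecules, 891 at 200 to 999 and 18.9 at 1000 or more. At E18.5 Bglap was present in 14.3% of the 77 cells and in 0% of the 12 with at least 200 Col2a1 molecules. With the corrected counts of an earlier pipeline step, called RSEC, the adult folds became 1.17 for Mmp13 and 1.18 for Spp1, so their direction in the adult library depended on the error correction. The adult folds of Pth1r and Alpl became 3.36 and 2.86 with RSEC, both under 4-fold. The count past 4-fold was again 2 of 6, but of other genes, Bglap at 6.18-fold among them. With cells picked by a level of at least 100 Col2a1 molecules per 10000 instead of by 10 molecules, the adult folds were 1.002 for Spp1 and 1.10 for Bglap.

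The Wnt ligands had 0 of 5 members at least 4-fold higher in adult Col2a1-high cells and 2 of 5 at E18.5, where Wnt4 stood at 13.3-fold and Wnt5b at 4.03-fold. Of all targets outside the 6, 10.5% stood that far higher in the adult library and 14.3% at E18.5. Wnt5b, which is known in the growth plate, was 2.86-fold higher in the adult cells, and Wnt9a stood at 0.0938. Near those shares, the other matrix genes had 0 of 7 that far higher in the adult cells and 1 of 7 at E18.5. That gene was Mgp, the matrix Gla protein, at 7.47-fold, with 3.20-fold in the adult cells. Fbln5, Aspn, Ecm1 and Fbn1 lay at 0.0228 to 0.0364 in the adult cells. There 5 of the 7 matrix genes were at least 4-fold lower, where 58.1% of all targets outside the 6 were.

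Another 6 genes of the panel known from cartilage were listed after the panel had been seen. In adult Col2a1-high cells Epyc, a small proteoglycan of cartilage, stood at 172-fold, Scrg1 at 152-fold, Panx3 at 60.0-fold, Cnmd at 23.4-fold, Cytl1 at 9.06-fold and Cilp at 1.69-fold. At E18.5 Cytl1 stood at 136-fold, Panx3 at 43.3-fold, Epyc at 34.5-fold, Scrg1 at 4.34-fold and Cilp at 1.38-fold. These 5 genes were present in 16.9%, 50.6%, 31.2%, 11.7% and 2.60% of the 77 E18.5 cells, in that order. Epyc had a mean of 84.3 molecules in the 3 cells with at least 1000 Col2a1 molecules and 0.846 in the 65 with 10 to 199. At least 4-fold higher were thus 5 of 6 genes in the adult library, where 10.5% of targets passed, and 4 of 5 with enough molecules at E18.5, where 14.3% did. Over the 7939 adult cells, the targets outside the 6 most like Col2a1 by Pearson correlation of log2 of 1 plus the level were Epyc at 0.569, Scrg1 at 0.565, Panx3 at 0.472, Smpd3 at 0.402 and Rspo4 at 0.399. Acan had the same 5, led by Scrg1 at 0.801 and Epyc at 0.782. For Sox9 they were led by Scrg1 at 0.699, for Matn1 by Smpd3 at 0.507 and for Col10a1 by Panx3 at 0.236. Prg4 differed from all of these, with Col22a1 first at 0.290. These cells share a library and differ in depth.

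Low counts of the same genes were spread over the rest of the marrow. Among the 6715 low cells of Adult BM cells, 34.3% had at least 1 Col2a1 molecule (exact 95% interval 33.1 to 35.4) and 62.3% of those had exactly 1. Prg4 was found in 25.5%, Sox9 in 3.77%, Col10a1 in 3.65%, Acan in 3.26% and Matn1 in 0.164%. The 12724 low cells of E18.5 BM cells had Col2a1 in 2.77%, Acan in 2.35%, Col10a1 in 1.45%, Sox9 in 1.26%, Matn1 in 0.472% and Prg4 in 0.228%. In low cells the level of Col2a1 per 10000 molecules was 4.66 times that of E18.5 in the adult library, while the ratio for Acan was 0.292 and for Sox9 1.05. Adult low cells were deeper, with a median of 201 molecules against 96, so each ratio was higher when taken per cell. The 6715 adult low cells held 4384 Col2a1, 268 Acan and 368 Sox9 molecules. The 12724 of E18.5 held 652, 636 and 242.

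The reads behind these low counts differed from those of high cells. In adult low cells a raw Col2a1 molecule had 1.26 reads and 5.25% of raw molecules passed the DBEC correction, against 4.21 reads and 40.6% in high cells. Low and high cells were themselves called on DBEC counts, so a lower share passing in low cells follows in part from that rule. For Col10a1 1.09% passed in low cells and 28.6% in high cells. For Acan the shares were 2.49% and 37.2%. At E18.5 the share that passed was nearer between low and high cells for Acan (29.6% and 37.2%) and Sox9 (32.0% and 44.0%) than for Col2a1 (9.32% and 34.8%) and Col10a1 (4.25% and 32.9%).

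Low cells were also split by depth into 4 sets of equal size. Adult low cells carried 0.563, 0.562, 0.579 and 0.908 Col2a1 molecules per cell from the shallowest to the deepest set, whose median depths were 68, 136, 292 and 596. The number per cell thus rose far less than the depth, and the level per 10000 went from 82.6 to 9.42. Sox9 rose from 0.0179 to 0.113 per cell over the same sets. At E18.5, Col10a1 stayed between 0.0236 and 0.0311 per cell, whereas Acan rose from 0.00283 to 0.164 and Sox9 from 0.00157 to 0.0531.

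To see in which cells the low counts lay, low cells were grouped by markers outside the 6 genes, with at least 5 marker molecules and at least 50% of all marker molecules from 1 list. Blood and endothelial cells, which are not known as sources of cartilage matrix, served as the reference for background. Adult low cells led by blood markers (307 cells) had 40.9 Col2a1 molecules per 10000 and those led by endothelial markers (1220 cells) 38.5, with Col2a1 in 24.8% and 31.2% of cells. After thinning to 50 molecules per cell these shares were 17.42% and 18.49%. Groups were ordered differently with and without thinning. Col2a1 was found in 35.3% of reticular-led, 38.0% of osteoblast-led and 37.0% of fibroblast-led low cells, above the blood-led and endothelial-led shares, and in 8.49%, 14.7% and 13.6% after thinning, below them, although the thinned intervals of osteoblast-led (12.5 to 17.2) and fibroblast-led cells (8.71 to 19.8) overlapped that of blood-led cells (13.2 to 22.3). Mural-led cells had 30.4% without thinning and 7.93% with it, at a median depth of 422. Median depth was 368.5, 134.5 and 266 molecules in reticular-led, osteoblast-led and fibroblast-led cells against 78 in blood-led and 113 in endothelial-led cells, so no order is read from the shares. Low cells in which no list led had the highest thinned share, 24.2% (21.3 to 27.2), and a median depth of 81 molecules.

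**Figure D5:**
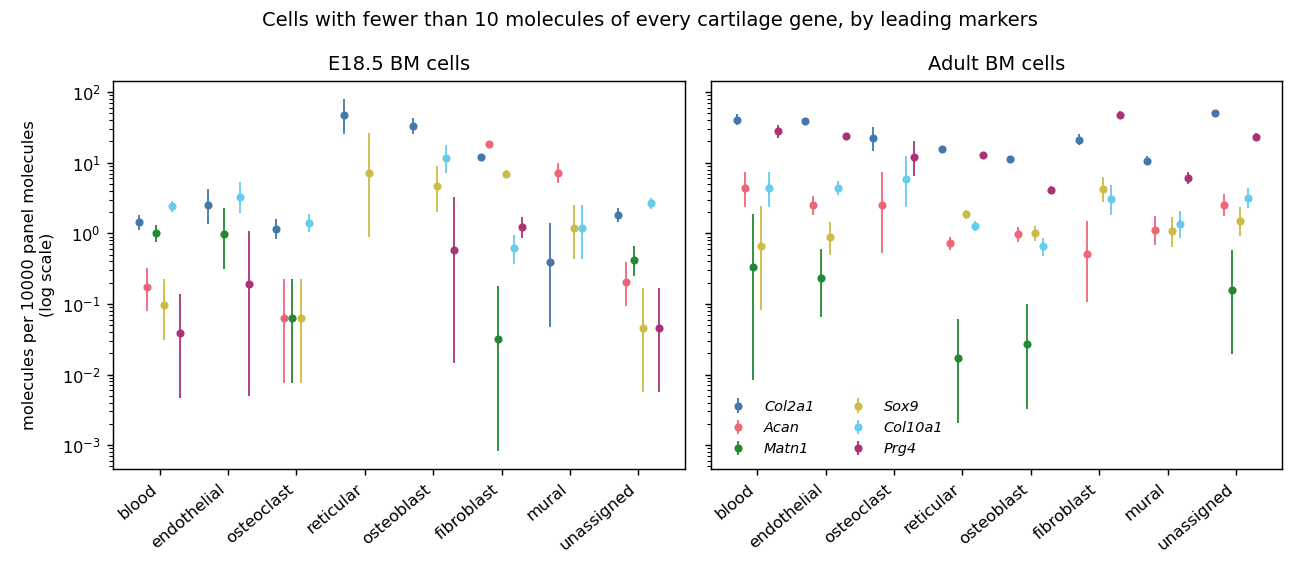
Points give molecules of each gene per 10000 panel molecules, on a log axis, in cells with fewer than 10 molecules of every cartilage gene, grouped by leading markers outside the 6, with exact 95% Poisson intervals and groups at 0 left out. In E18.5 BM cells Acan and Sox9 stand out in fibroblast-led cells (18.7 and 6.996), and in Adult BM cells Prg4 stands out in fibroblast-led cells (47.4).

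The proportions of the genes to each other were compared between low and high cells. Per Col2a1 molecule, adult Col2a1-high cells had 0.0636 Acan, 0.0926 Col10a1, 0.0106 Sox9 and 0.00161 Matn1 molecules. Adult low cells had 0.0611 Acan (0.0538 to 0.0692), 0.0849 Col10a1 (0.0761 to 0.0943) and 0.00251 Matn1 (0.00125 to 0.00449), so these 3 genes came in nearly the same proportions in low as in Col2a1-high cells. That closeness was seen with DBEC counts but not with RSEC or raw counts, where Acan per Col2a1 was 1.54 and 2.02 times as high in low cells and Col10a1 3.39 and 3.26 times. With cells called high by level, the ratios of low to Col2a1-high cells were 0.642 for Acan and 0.502 for Col10a1. Sox9 and Prg4 departed. Sox9 stood at 0.0839 per Col2a1 molecule in low cells (0.0753 to 0.0934), and Prg4 at 0.682 (0.651 to 0.714) against 0.0193 in Col2a1-high cells.

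The departure of Sox9 was not even over the adult groups. It stood at 0.0164 per Col2a1 molecule in low cells led by blood markers (0.00196 to 0.0605) and 0.0230 in those led by endothelial markers (0.0128 to 0.0383). Reticular-led cells had 0.119 (0.103 to 0.137), osteoblast-led 0.0896, mural-led 0.0994 and fibroblast-led 0.203 (0.127 to 0.314). As a level, Sox9 was 0.671 per 10000 in blood-led (0.0813 to 2.42), 0.886 in endothelial-led, 1.85 in reticular-led (1.61 to 2.11) and 4.31 in fibroblast-led low cells (2.79 to 6.37). In thinned cells its share was 0.697%, 0.602%, 0.892% and 2.47%. The fibroblast-led cells thus stood apart from endothelial-led cells on the level and the ratio, but the intervals of their thinned shares overlapped (0.677 to 6.20 and 0.242 to 1.24). Reticular-led cells stood apart from endothelial-led cells on the level and the ratio and not on the thinned share, and their level lay within the wide interval of blood-led cells.

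Prg4 departed in the same adult fibroblast-led cells, which are defined by Postn, Aspn and Ccn3. They had 47.4 Prg4 molecules per 10000 (42.0 to 53.4) against 27.8 in blood-led and 23.9 in endothelial-led low cells. Thinned shares were 23.5% (17.2 to 30.7), 12.2% (8.64 to 16.6) and 11.4% (9.66 to 13.4). Per Col2a1 molecule Prg4 stood at 2.24 (1.801 to 2.788) in them, 0.680 in blood-led and 0.622 in endothelial-led low cells. High Prg4 cells were also frequent there, since 103 of the 273 adult cells led by fibroblast markers were Prg4-high. Most Prg4-high cells lay in other groups, with 194 osteoblast-led, 110 without a leading list and 60 mural-led. The osteoblast list was Bglap, Bglap2 and Bglap3, and few molecules of these sufficed for the label. Adult cells with at least 200 Prg4 molecules had a mean of 3.61 Bglap molecules, against 971 in those with 10 to 199 Col2a1 molecules. The label also took 616 of the Col2a1-high cells (86.2%), so it does not name these cells as osteoblasts.

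The E18.5 marrow library showed the departure for Acan and Sox9 in its fibroblast-led cells. Those 1223 low cells, with a median depth of 229 molecules against 86 in blood-led cells, had 579 of the 636 Acan molecules and 217 of the 242 Sox9 molecules of all low cells. The Acan level was 18.7 per 10000 (17.2 to 20.3) against 0.172 in blood-led cells (0.0789 to 0.327), and 0 of 475 endothelial-led cells had a molecule, which allows a share of up to 0.632%. Sox9 was at 6.996 per 10000 (6.10 to 7.99) against 0.0958 in blood-led cells. Col2a1 was at 12.1 per 10000 against 1.44. After thinning to 50 molecules, Acan was in 7.99%, Col2a1 in 5.49% and Sox9 in 3.99% of the fibroblast-led cells, and in 0.0504%, 0.580% and 0.0504% of blood-led cells.

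These cells did not hold the other genes of the growth plate in proportion. Matn1 gave 1 molecule and Col10a1 19 molecules in the 1223 cells, at 0.0322 and 0.613 per 10000. In blood-led cells Col10a1 was at 2.43 per 10000 and 0.0257 molecules per cell, against 0.0155 per cell here. Acan per Col2a1 molecule was 1.54 (1.35 to 1.76) in fibroblast-led low cells and 0.0620 (0.0575 to 0.0667) in the Col2a1-high cells of the library. Low cells led by mural markers, which mark smooth muscle cells and pericytes, had Acan at 7.23 per 10000 (5.09 to 9.96) in 15.5% of 129 cells, with 2 molecules of Col2a1. In thinned cells that share was 1.59% (0.193 to 5.62).

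Matn1 and Col10a1 had low counts of other kinds at E18.5. Blood-led low cells of the marrow library gave 52 of the 78 Matn1 molecules of low cells, at 0.997 per 10000 (0.744 to 1.31), close to the 0.967 of endothelial-led cells (0.314 to 2.26), beside 75 Col2a1 and 127 Col10a1 molecules. Matn1 per Col2a1 molecule was 0.693 there and 0.0536 in the Col2a1-high cells. In E18.5 EC, blood-led low cells gave 9 of 16 Matn1 molecules, and the 1 Matn1-high cell, with 14 molecules, was led by blood markers. Col10a1 of that library lay in cells led by the osteoclast genes Acp5, Ctsk, Atp6v0d2 and Mmp9. Their 221 low cells had 7.87 Col10a1 molecules per 10000 (5.48 to 10.9) against 0.415 in 2459 endothelial-led low cells (0.199 to 0.763), and both Col10a1-high cells, with 28 and 12 molecules, were of this group. In thinned cells the shares were 2.44% and 0.199%. The osteoclast-led low cells of the E18.5 marrow library had 1.42 per 10000 (1.04 to 1.90) against 2.43 in its blood-led cells, but 0.0373 against 0.0257 molecules per cell, with median depths of 212.5 and 86.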

How the data were processed

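Targeted single-cell RNA libraries were made on the BD Rhapsody system, 1 per group. The file headers name version 1.8 of the Targeted Analysis Pipeline. The deposited tables of the authors give, per cell and amplicon, counts of reads, of raw molecules and of molecules after the RSEC and DBEC corrections. DBEC removes molecules with few reads, so it acts hardest on genes read thinly. DBEC counts were used. Amplicons were summed by gene symbol, and cells with under 20 molecules or 5 targets were left out. No doublets were removed. Levels were given per 10000 panel molecules with exact Poisson intervals, shares with exact Clopper-Pearson intervals and ratios with exact conditional intervals, all at 95% and all covering counting error alone. For a share of 0, the limit given is 3 counts of the total instead of the exact bound. With 1 library per group no test was made. Shares were repeated after thinning cells to 50 molecules. A fold needed at least 20 molecules. Named genes were the 6 members, the fixed lists, the 5 targets most like each member, and the 5 leading targets with at least 20 molecules in cells high for a member without Col2a1. The members and lists were chosen with earlier results of these data known, and the ranges of counts and the sets by depth after the values were seen. Python 3.11.15, numpy 2.4.6, pandas 2.3.3, scipy 1.17.1 and matplotlib 3.10.9 were used, and the scripts were tested on simulated data. Alternatives were RSEC and raw molecules, other rules for a high cell, another denominator and thinning to 100 molecules.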

Additional observations from a re-analysis of the deposited data

How the results depend on the processing

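No paired analysis was possible because each group has 1 library and no result comes from a test. Of 154 alternatives, 58 kept a value within its counting interval or a count near the reported one, 93 did not, and 3 turned a direction, and the causes were not tested. Adult over E18.5 marrow ratios with RSEC, with raw molecules and without the 6 genes in the denominator were 17.4, 16.5 and 33.9 for Col2a1, 13.1, 11.5 and 19.3 for Acan, 0.949, 0.840 and 0.963 for Matn1, and 340.3, 374 and 685 for Prg4. Without the 6 genes Sox9 was 11.5 and Col10a1 2.11, and Col10a1 was 1.49 with raw molecules. With RSEC, raw and thinning to 100 molecules, thinned shares in the adult library were 66.5%, 55.4% and 24.8% for Col2a1 (19.7% as reported) and 33.7%, 25.4% and 2.80% for Col10a1, and at E18.5 11.3%, 8.61% and 3.89% for Col2a1 and 13.9%, 10.6% and 1.79% for Col10a1. High cells numbered 4106 (RSEC), 4179 (raw), 1977 (at least 3 molecules) and 1890 (by level) in the adult library, and 186, 257, 314 and 328 at E18.5, with 203 at 5 molecules. The adult share of Col10a1-high cells that were Col2a1-high was 97.1% with RSEC, 97.1% with raw molecules and 74.2% by level. For low over Col2a1-high cells, adult Acan per Col2a1 was 1.54 (RSEC), 2.02 (raw) and 0.642 (level), Sox9 3.02, 4.56 and 5.64, with 9.59, 9.48 and 6.73 at 3, 5 and 20 molecules, and Col10a1 3.39, 3.26 and 0.502, with 1.02 at 3 molecules. At E18.5, Acan was 3.43 (RSEC), 4.50 (raw), 13.5, 17.9 and 12.6 (3, 5 and 20 molecules), and Sox9 6.58 and 10.01 (RSEC and raw). Levels per 10000 with RSEC and raw molecules were 14.1 and 11.2 for Acan in E18.5 fibroblast-led cells, 8.55 and 6.65 for Sox9 in adult reticular-led cells, and 119 and 84.0 for Prg4 in adult fibroblast-led cells, and Sox9 was 5.05 with raw molecules in E18.5 fibroblast-led cells. The adult folds that turned were Mmp13 at 1.17 and Spp1 at 1.18 with RSEC and Spp1 at 1.002 by level. Depth limits single cells most in the E18.5 libraries, with medians of 83 molecules per cell for EC and 97 for marrow.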
